A study of Homo sapiens with 12 samples.

Results

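The genes described here form the IGF axis: the receptors IGF1R, IGF2R and INSR, the insulin receptor substrates IRS1 and IRS2, and the IGF-binding proteins IGFBP2, IGFBP3, IGFBP4, IGFBP6 and IGFBP7. Members were the probe sets annotated to only one of these 10 symbols, whatever their signal, which gave 26 of the 54675 probe sets on the array and 10 of the 19775 genes that have a probe set of their own. RNA came from CL1-0 and CL1-5, human lines of non-small cell lung adenocarcinoma. They are sublines of one tumour line, of which CL1-5 is known as the more invasive. Cells grew overnight in serum-containing medium in a microfluidic chip and then spent 2 h in medium without serum, at either 0 or 300 mV/mm of direct-current electric field, before trypsin released them. Each combination of line and field was measured on 3 arrays of 1 colour, 12 in all, which the submitters name biological replicates. The field was thus compared within each line and the lines were compared with and without it. There is 1 line of each kind, so a difference between the lines holds for this pair alone. Precision is limited by how few arrays there are.

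Insulin-like growth factors act through IGF1R, a tyrosine kinase that forms hybrids with the closely related insulin receptor, whose gene is INSR. Both phosphorylate the docking proteins IRS1 and IRS2, which pass the signal to PI3-kinase and AKT. IGF2R, the mannose 6-phosphate receptor, takes IGF-II into the cell for degradation and has no kinase. Secreted IGFBPs hold the ligands outside the cell, and proteases free the ligands again. In lung cancer the axis is known chiefly as a survival and growth pathway and as a target of receptor inhibitors.

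Signals are the deposited MAS5 intensities, in linear units that MAS5 scales to a common level per array. The median probe set of an array lay between 60.7 and 72.4 units. The 4 arrays numbered replicate 1 stood apart from the others. The control transcript dap, which is added in the laboratory, read 3.64 to 14.5 on them and 1250 to 1660 on the arrays of replicates 2 and 3. Ratios of 3' to 5' probe signal were 1.21 to 1.54 for actin and 0.91 to 1.02 for GAPDH over all arrays. The epithelial keratins KRT8 and KRT18 were above the array median on all 12 arrays, and KRT19 was above it on 2, at 1.61 to 164 in CL1-0 and 2.68 to 11.4 in CL1-5. CDH1, which encodes E-cadherin, read 183 to 1510 in CL1-0 and 16.4 to 177 in CL1-5. The epithelial adhesion gene EPCAM read 138 to 1540 in CL1-0 and 16.3 to 56.2 in CL1-5, so this marker was low in the second line. Of the 5 epithelial markers, 4 were above the median on all arrays of CL1-0 and 2 on all of CL1-5 (summed 2960 to 24500 and 16200 to 32500). Of the 4 lung markers, 2 were above the median on all arrays of CL1-0 and 3 on all of CL1-5 (summed 407 to 656 and 331 to 540). NKX2-1 was above it on all 12 arrays, at 129 to 290 in CL1-0 and 70.5 to 167 in CL1-5, and SFTPB was too. NAPSA was above it on 10 arrays (58.3 to 96.2 and 71.1 to 112) and SFTPC on 6 (29.8 to 136 and 5.41 to 144). Of the leukocyte markers, 0 of 3 were above the median on all arrays of either line (summed 73.8 to 150 in CL1-0 and 89.1 to 168 in CL1-5). The fibroblast list had 1 of 5 such markers in each line (summed 378 to 833 and 300 to 486), and the endothelial list 1 of 4. The endothelial sum was 138 to 219 in CL1-0 and 331 to 1730 in CL1-5, mostly through PECAM1 (66.9 to 168 and 174 to 1560). KDR leaned the same way, at 28 to 89.2 and 59.6 to 167, and was above the median on 6 arrays. CDH5 and VWF were above it on 0 arrays. The part of these markers in the line differences was not tested. In RNA of whole cultures, fewer cells with a transcript and less of it per cell cannot be told apart.

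IGF1R, IRS2, IGFBP2, IGFBP3, IGFBP4 and IGFBP7 differed between the lines at 1 probe set or more, and the field moved none of the members past the test. Without the field, IGFBP3, IGFBP4 and IGFBP7 were higher in CL1-5, and IGF1R, IRS2 and IGFBP2 were lower. IGFBP4 had the largest difference of these, with at least a 96.8-fold higher signal in CL1-5. Differences are CL1-5 minus CL1-0 on the log2 scale, with the SE and the Benjamini-Hochberg adjusted p of limma over all 31890 probe sets that passed a filter on low signal, and a probe set is called at an adjusted p under 0.05. Where a group lies under the median of its arrays, the fold is a lower bound, computed with such signals raised to that median. Of the 26 member probe sets 23 passed the filter, at least 1 for each gene. Without the field 9 of the 23 were called, 5 higher and 4 lower in CL1-5, where 12.1% of all probe sets tested were called (6.53% higher and 5.58% lower). Under the field 8 were called, 5 higher and 3 lower, against 13.4% of all (7.03% higher and 6.41% lower). The arrays of the lines did not overlap at 12 of the 23 probe sets without the field and at 11 under it, against 28.8% and 30.8% of all probe sets. Both comparisons hold different arrays but share 1 estimate of the spread. A probe set can pass the filter through the line in which it is high. Both IGFBP7 probe sets tested and 212143_s_at of IGFBP3 did so with at most 1 array of CL1-0 above the median. IGFBP2 202718_at did so through CL1-0, with 1 array of CL1-5 above it. The counts above therefore describe the members and support nothing further.

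**Figure D1:**
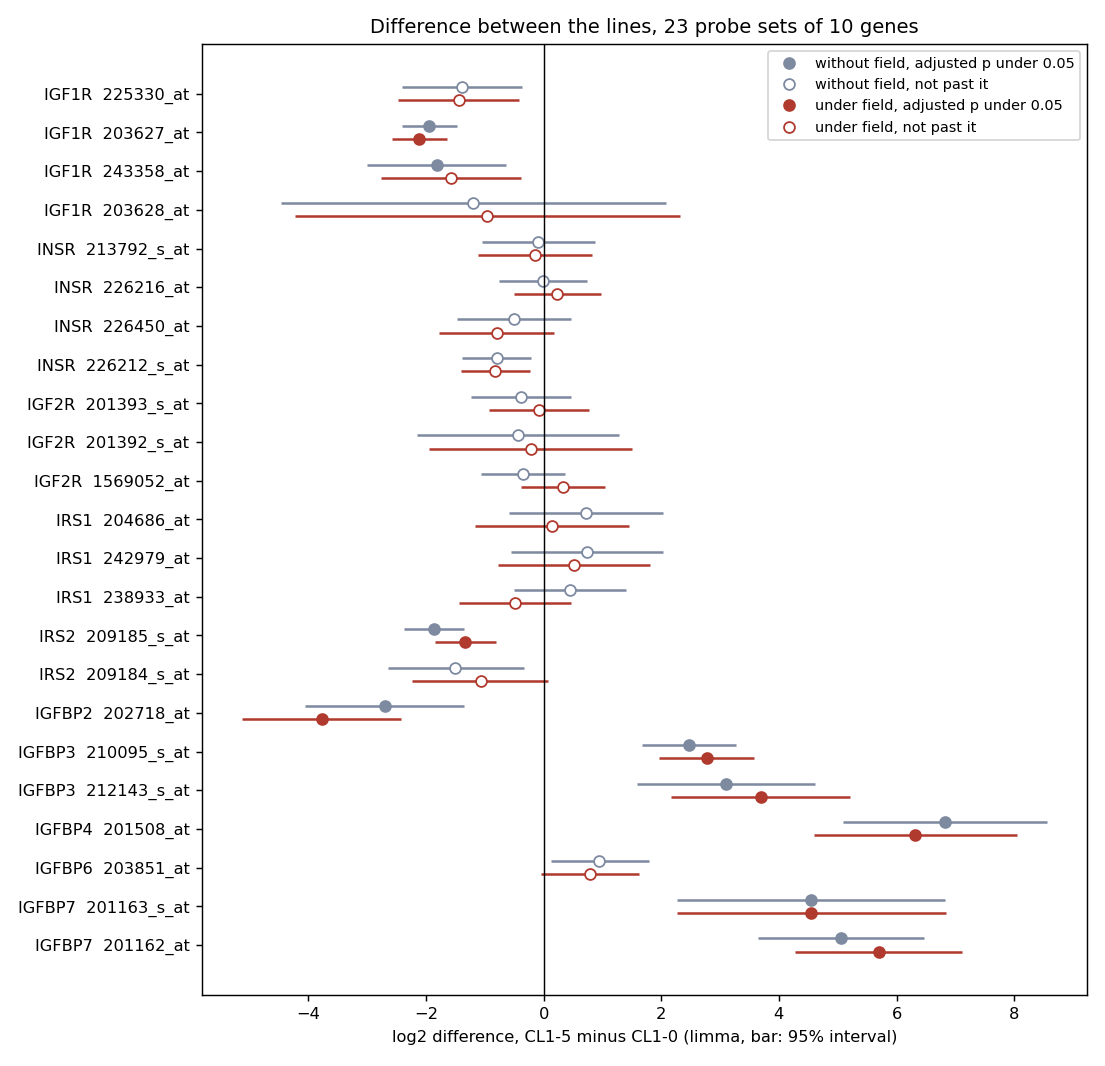
Difference between the lines on the log2 scale (x axis, CL1-5 minus CL1-0) for the 23 member probe sets tested (rows), without field in grey and under field in red, with 95% intervals from limma as bars and filled points for an adjusted p under 0.05. The IGFBP3, IGFBP4 and IGFBP7 points lie right of 0, from 2.48 up to 6.83, and the IGF1R, IRS2 and IGFBP2 points lie left of it.

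Samples of the 4 groups that carry the same replicate number deviated together, mainly through replicate 1, so a fit with that number as a block was also made. It left each difference as it was, and in the line comparisons its SEs for the members were equal or smaller. With the block 15 of the 23 were called without the field, 7 higher and 8 lower (28.5% of all probe sets tested), and 13 under it, 6 higher and 7 lower (31.6% of all). Its adjusted p is given below for each member that it brought past the test.

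IGF1R, the kinase receptor of the axis, was lower in CL1-5. Its probe set 203627_at read 3079, 3400 and 3148 in CL1-0 without the field and 988, 704 and 828 in CL1-5. The arrays under the field read 3404, 3919 and 3535 in CL1-0 and 973, 653 and 922 in CL1-5. Every CL1-0 array was above every CL1-5 array, and arrays of one group lay close together. The difference was -1.95 ± 0.21 without the field (limma, adjusted p = 0.000103), a 3.85-fold lower signal in CL1-5, and -2.11 ± 0.21 under it (adjusted p = 6.26e-05), a 4.32-fold lower signal. The 3 CL1-0 arrays under the field were above the 3 without it, while in CL1-5 the groups overlapped. The interval of the field difference in CL1-0 was -0.29 to 0.64.

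The IGF1R probe set with the highest signal, 225330_at, gave the same direction with more spread. It read 2189, 3358 and 4403 in CL1-0 and 956, 1228 and 1546 in CL1-5 without the field. Under the field it read 2527, 4415 and 4733 in CL1-0 and 624, 1601 and 2643 in CL1-5, where the highest CL1-5 array passed the lowest CL1-0 array. Replicate 1 was the lowest array of each of the 4 groups. The differences of -1.39 ± 0.47 (limma, adjusted p = 0.0823) and -1.44 ± 0.47 (adjusted p = 0.0666) missed the test, and with the replicate block both passed it (adjusted p = 0.000472 and 0.000335).

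A further IGF1R probe set, 243358_at, read 1237, 354 and 561 in CL1-0 and 334, 109 and 153 in CL1-5 without the field. All CL1-0 arrays were above the CL1-5 arrays there, as they were under the field (949, 479 and 448 against 298, 130 and 199). The difference without the field was -1.82 ± 0.54 (limma, adjusted p = 0.0489), a call that ended on leaving out any of 8 of the 12 arrays (adjusted p = 0.0542 to 0.173). It also ended with a floor at the array median (0.0544), with no filter (0.0673), without the intensity trend (0.0682) and on the 2 groups compared alone (0.0977). It was -1.57 ± 0.54 under the field (adjusted p = 0.0803), called with the block (adjusted p = 0.000176). The last, 203628_at, was governed by replicate 1, which read 2076, 2295, 960 and 2076 in the 4 groups against 42.5 to 229 on the 8 other arrays. Its difference of -1.2 ± 1.5 without the field had an interval of -4.47 to 2.08 and was called with the block alone (adjusted p = 0.0324), while under the field it was -0.96 ± 1.5 (adjusted p = 0.756, and 0.0741 with the block). The fifth IGF1R probe set, 208441_at, was at 11 to 75.7 and did not pass the filter.

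INSR, which encodes the insulin receptor, showed no called difference at 4 probe sets. Its leading probe set, the one with the highest mean, 213792_s_at, read 361, 243 and 263 in CL1-0 and 368, 214 and 245 in CL1-5 without the field. Under the field the arrays read 430, 203 and 234 against 373, 124 and 324, so the groups overlapped throughout. The difference was -0.09 ± 0.44 without the field, with an interval of -1.05 to 0.88, and -0.15 ± 0.44 under it, with an interval of -1.11 to 0.82. Probe set 226212_s_at alone separated the lines. Without the field it read 200, 175 and 206 in CL1-0, against 113, 124 and 98.8 in CL1-5. Its differences of -0.79 ± 0.27 (limma, adjusted p = 0.0816) and, under the field, -0.82 ± 0.27 (adjusted p = 0.067) were called with the block (adjusted p = 0.0371 and 0.0295). This probe set varied apart from the leading one, with a correlation of 0.16 over the 12 arrays. The other INSR probe sets were 226216_at, at 164 to 349 with a difference of -0.01 ± 0.34, and 226450_at, at 111 to 382 with a difference of -0.51 ± 0.44, both without the field. Under the field they differed by 0.23 ± 0.34 (limma, adjusted p = 0.734) and -0.79 ± 0.44 (adjusted p = 0.297). Probe set 207851_s_at, at 6.19 to 72.9, did not pass the filter.

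IGF2R, which clears IGF-II, did not differ between the lines past the test at any of 3 probe sets. The leading one, 201393_s_at, read 1888, 1239 and 1177 in CL1-0 and 1580, 809 and 972 in CL1-5 without the field. With the field it was 2006, 1027 and 972 against 1420, 744 and 1628. The lines overlapped in both, and the intervals of the difference were -1.23 to 0.47 and -0.92 to 0.78. Probe set 201392_s_at was high on replicate 1 (612 to 894) and at 148 to 293 on the other arrays. Its difference was -0.43 ± 0.79 without the field and -0.22 ± 0.79 under it. The weak probe set 1569052_at read 66 to 181 and differed by -0.35 ± 0.33 without the field and by 0.33 ± 0.33 under it.

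**Figure D2:**
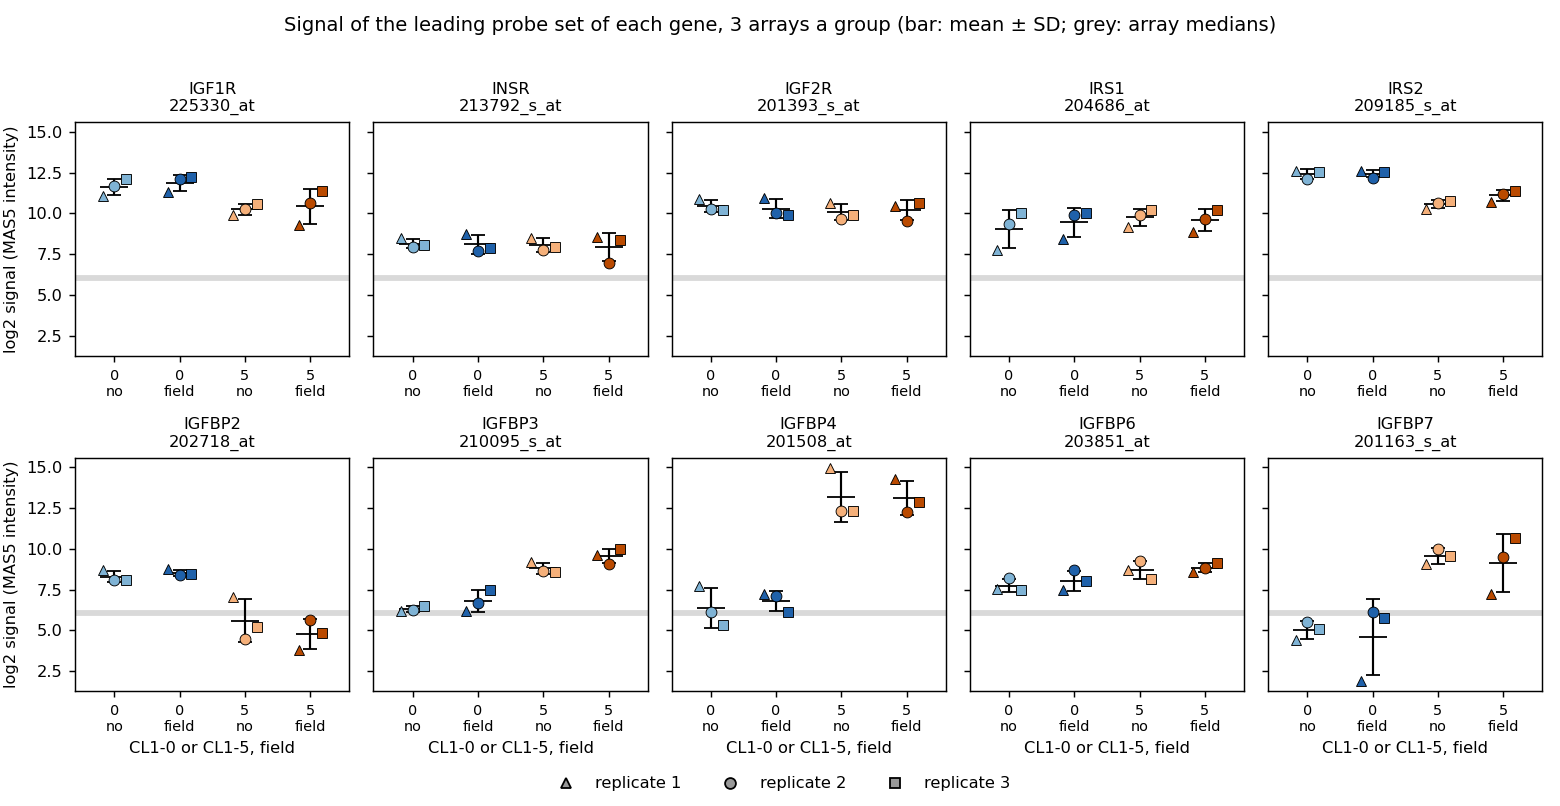
Log2 MAS5 signal (y axis) of the leading probe set of each of the 10 genes in the 4 groups (x axis, CL1-0 or CL1-5, no field or field), with 1 point an array shaped by replicate number, the mean ± SD over 3 arrays as bars and the range of the 12 array medians in grey. IRS2 and IGFBP2 sit lower in CL1-5, IGFBP3, IGFBP4 and IGFBP7 sit higher, and INSR and IGF2R overlap.

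Of the substrates, IRS2 was lower in CL1-5, and IRS1 passed the test in neither comparison. Both dock PI3-kinase once phosphorylated. The leading IRS2 probe set, 209185_s_at, read 6302, 4363 and 5972 in CL1-0 and 1244, 1579 and 1732 in CL1-5 without the field. Under the field the arrays read 6162, 4687 and 5941 in CL1-0 and 1692, 2344 and 2712 in CL1-5. All 6 CL1-0 arrays were above all 6 CL1-5 arrays. The difference was -1.86 ± 0.24 without the field (limma, adjusted p = 0.000318), a 3.64-fold lower signal, and -1.33 ± 0.24 under it (adjusted p = 0.00314), a 2.52-fold lower signal. The second IRS2 probe set, 209184_s_at, read 2114, 689 and 861 in CL1-0 and 531, 249 and 422 in CL1-5 without the field, and 2098, 618 and 711 against 613, 334 and 484 under it. It separated the lines too, with differences of -1.5 ± 0.53 (adjusted p = 0.0947) and -1.07 ± 0.53 (adjusted p = 0.23), called with the block (adjusted p = 0.000481 and 0.00407).

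IRS1 at its leading probe set, 204686_at, read 212, 661 and 1036 in CL1-0 and 586, 957 and 1166 in CL1-5 without the field. Arrays under the field were at 346, 963 and 1024 against 474, 794 and 1208. Replicate 1 was the lowest array of every group and the lines overlapped. The difference was 0.72 ± 0.6 without the field, with an interval of -0.59 to 2.03, and was called with the block (limma, adjusted p = 0.0322). It was 0.14 ± 0.6 under the field, with an interval of -1.17 to 1.45, and was not called with the block (adjusted p = 0.69). Probe set 242979_at followed the leading one with a correlation of 0.92 over 12 arrays. It differed by 0.73 ± 0.59 without the field (interval -0.56 to 2.03) and by 0.52 ± 0.59 under it. Probe set 238933_at, at 42.3 to 122, differed by 0.45 ± 0.43 without the field and, with the opposite sign, by -0.48 ± 0.43 under it.

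The promoters of the receptor and substrate with a called difference are shown to put sequence beside these levels. Each is the 250 bases before the gene's start in RefSeq on GRCh38.p14, read 5' to 3' on the gene's strand, at chr15:98648289-98648538 (plus strand) for IGF1R and chr13:109786584-109786833 (minus strand) for IRS2. Capitals mark the GC box, GGGCGG, and the TATA box, TATAAA, searched on both strands with overlapping matches counted.
IGF1R: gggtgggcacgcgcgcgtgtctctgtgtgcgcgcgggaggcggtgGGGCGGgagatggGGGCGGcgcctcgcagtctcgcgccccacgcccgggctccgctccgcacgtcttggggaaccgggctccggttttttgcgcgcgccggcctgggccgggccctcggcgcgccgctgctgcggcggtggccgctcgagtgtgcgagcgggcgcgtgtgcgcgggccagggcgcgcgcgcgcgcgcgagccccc
IRS2: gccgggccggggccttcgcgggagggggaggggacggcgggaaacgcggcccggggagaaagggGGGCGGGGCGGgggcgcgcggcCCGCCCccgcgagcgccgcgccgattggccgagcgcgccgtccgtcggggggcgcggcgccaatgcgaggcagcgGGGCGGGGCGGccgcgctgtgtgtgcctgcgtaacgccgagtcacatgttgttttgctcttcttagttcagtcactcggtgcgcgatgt
IGF1R held 2 GC boxes and IRS2 held 5, and neither window held TATAAA. Of 35116 RefSeq promoter windows of that length, 42.6% held a GC box and 10.7% held TATAAA. The windows were 81.2% and 76.4% G or C, against a median of 58.0%. Their CpG content was 1.18 and 1.21 times that predicted from base composition, at the 99.0 and 99.3 percentiles of all windows, for which the median was 0.558. IRS2 also held 2 matches of CCAAT, which 32.0% of windows held. IGF1R was called at probe sets other than its leading one, while INSR, IGF2R and IRS1 had no probe set called without the block. Of these last, INSR held 4 GC boxes in a window of 78.4% G or C with a CpG ratio of 0.732 (62.8 percentile). IGF2R held 6, with 79.2% and 0.849 (75.4 percentile), and IRS1 held 4, with 80.8% and 0.977 (89.8 percentile).

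IGFBP2 was the only one of the 5 binding proteins called lower in CL1-5. IGFBP2 binds both IGFs and also contacts integrins. Its probe set 202718_at read 411, 271 and 276 in CL1-0 and 134, 22.5 and 37.3 in CL1-5 without the field. Under the field it read 432, 330 and 356 against 14.1, 49.9 and 28.2. All 6 CL1-0 arrays were above all 6 CL1-5 arrays, of which 1 exceeded the median of its array. The difference was -2.7 ± 0.62 without the field (limma, adjusted p = 0.0137) and -3.77 ± 0.62 under it (adjusted p = 0.00188), at least 3.78-fold and 5.62-fold lower in CL1-5. The first call ended without replicate 2 or replicate 3 of CL1-5 without the field (adjusted p = 0.0552 and 0.0564).

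IGFBP3, the main carrier of IGFs in blood, was higher in CL1-5 at both probe sets. The leading one, 210095_s_at, read 72.7, 76.9 and 91.7 in CL1-0 and 588, 392 and 384 in CL1-5 without the field. Under the field the arrays read 73.8, 104 and 181 against 795, 549 and 1006. The lines did not overlap, and all 6 CL1-0 arrays were above their array medians. The difference was 2.48 ± 0.36 without the field (limma, adjusted p = 0.000871) and 2.77 ± 0.36 under it (adjusted p = 0.000415), which are 5.57-fold and 6.82-fold. Probe set 212143_s_at read 12.9 to 67.7 in CL1-0 and 157 to 487 in CL1-5, and differed by 3.1 ± 0.7 (adjusted p = 0.0123) and 3.69 ± 0.7 (adjusted p = 0.00438). That is at least 3.75-fold and 5.68-fold, and the first call ended without replicate 2 of CL1-0 without the field (adjusted p = 0.0528). The probe sets followed each other with a correlation of 0.87 over the 12 arrays, which share the line difference.

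IGFBP4, which is known for holding IGFs away from the receptor until the protease PAPPA cuts it, had the largest line difference of the members by fold. Its 1 probe set, 201508_at, read 209, 68.3 and 39.7 in CL1-0 and 31801, 5079 and 5135 in CL1-5 without the field. Under the field it read 150, 138 and 68.8 against 19957, 4880 and 7460. The lowest CL1-5 array was far above the highest CL1-0 array, and in CL1-5 replicate 1 was the highest array with and without the field. The difference was 6.83 ± 0.79 without the field (limma, adjusted p = 0.000163) and 6.32 ± 0.79 under it (adjusted p = 0.000299), at least 96.8-fold and 79.9-fold. On replicates 2 and 3 alone the differences were 6.62 and 5.95, and on replicate 1 alone 7.25 and 7.05.

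IGFBP7, a secreted protein of the IGFBP superfamily with low affinity for IGFs, was higher in CL1-5 at both probe sets tested. Its leading probe set, 201163_s_at, read 21.1, 45.2 and 33.7 in CL1-0 and 527, 1041 and 746 in CL1-5 without the field. Under the field it read 3.74, 69.5 and 53 against 147, 732 and 1643. The lines did not overlap, and replicate 1 was the lowest array of each group. The difference was 4.55 ± 1.05 both without the field (limma, adjusted p = 0.0141) and under it (adjusted p = 0.0135), at least 11.7-fold and 8.16-fold. These calls ended without replicate 2 of CL1-5 without the field (adjusted p = 0.0543) and without replicate 3 of CL1-5 under it (adjusted p = 0.0615), and the second also on the groups compared alone (adjusted p = 0.0638). Probe set 201162_at read 7.11 to 17.1 on the 6 CL1-0 arrays and 165 to 1051 on the 6 CL1-5 arrays. It differed by 5.06 ± 0.65 (adjusted p = 0.00033) and 5.7 ± 0.65 (adjusted p = 0.00015), at least 6.3-fold and 7.12-fold. Probe set 213910_at stayed at 1.08 to 26.6 and did not pass the filter.

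IGFBP6, which prefers IGF-II, leaned the same way with overlap. Probe set 203851_at read 188, 293 and 180 in CL1-0 and 415, 620 and 280 in CL1-5 without the field. With the field its arrays were at 175, 412 and 257 against 383, 452 and 558. A CL1-0 array reached into the CL1-5 range in each comparison. The differences of 0.95 ± 0.38 (limma, adjusted p = 0.145) and 0.79 ± 0.38 (adjusted p = 0.22) missed the test, and the block fit called both (adjusted p = 0.0206 and 0.0441).

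The windows of 3 binding proteins are shown because IGFBP2 was lower in CL1-5 while IGFBP3 and IGFBP4 were higher. They lie at chr2:216632578-216632827 (plus strand) for IGFBP2, chr7:45921273-45921522 (minus strand) for IGFBP3 and chr17:40443200-40443449 (plus strand) for IGFBP4, from the same RefSeq table and build, with capitals as before. The table holds 3 entries for IGFBP2, of which the window at the start of the annotated gene is shown and the others were not searched as members.
IGFBP2: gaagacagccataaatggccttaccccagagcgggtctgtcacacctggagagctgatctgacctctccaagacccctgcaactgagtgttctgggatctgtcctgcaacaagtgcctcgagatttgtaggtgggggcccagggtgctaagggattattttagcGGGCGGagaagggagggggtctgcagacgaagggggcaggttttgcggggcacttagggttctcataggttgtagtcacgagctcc
IGFBP3: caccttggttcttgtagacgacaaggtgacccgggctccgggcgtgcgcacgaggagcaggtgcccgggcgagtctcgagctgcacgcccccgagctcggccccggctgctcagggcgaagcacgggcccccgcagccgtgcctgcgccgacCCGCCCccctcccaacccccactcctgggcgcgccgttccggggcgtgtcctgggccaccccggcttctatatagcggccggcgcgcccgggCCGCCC
IGFBP4: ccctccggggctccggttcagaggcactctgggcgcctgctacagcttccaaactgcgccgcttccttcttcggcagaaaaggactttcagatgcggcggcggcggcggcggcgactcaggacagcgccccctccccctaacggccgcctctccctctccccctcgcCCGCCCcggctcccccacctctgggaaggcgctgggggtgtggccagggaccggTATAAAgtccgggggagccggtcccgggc
IGFBP2 held 1 GC box in a window of 56.8% G or C, near the middle of all windows (46.2 percentile), with a CpG ratio of 0.361. IGFBP3 held 2 GC boxes and IGFBP4 held 1, in windows of 76.0% and 71.6% G or C with CpG ratios of 0.898 and 0.758. IGFBP4 was the only one of the 9 members matched to the table with TATAAA. IGFBP6 held 1 GC box, 61.2% G or C, a CpG ratio of 0.385, and 1 match of the FOXO motif GTAAACA, which 2.98% of all windows held. A match describes these letters and no site was measured. Along the genome IGFBP2 neighbours IGFBP5, and IGFBP3 neighbours IGFBP1. IGFBP5 differed by -0.22 ± 0.92 between the lines without the field (limma, adjusted p = 0.938), and IGFBP1 did not pass the filter.

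The line difference itself was compared with and without the field through the interaction term, which is the field response in CL1-5 minus that in CL1-0. None of the 23 member probe sets was called by limma, and none had an unadjusted p under 0.05 (0 of 31890 probe sets were called in all, 0%). The closest was IRS2 209185_s_at, at 0.53 ± 0.34 (unadjusted p = 0.14, interval -0.2 to 1.27). For IGFBP4 the interaction was -0.51 ± 1.12, with an interval of -2.96 to 1.95, so a change of that size was not detectable with these arrays. With the block 0 were called and 2 had an unadjusted p under 0.05, IRS2 209185_s_at at 0.53 ± 0.16 (unadjusted p = 0.00586, adjusted p = 0.66) and IRS1 204686_at at -0.59 ± 0.25 (unadjusted p = 0.0389, adjusted p = 0.673).

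Replicate 1 set the level of several members in all 4 groups. Against the mean of replicates 2 and 3 on the log2 scale, replicate 1 was higher by 3.23 to 4.69 at IGF1R 203628_at and by 1.58 to 2.26 at IGF2R 201392_s_at. It was higher by 0.63 to 2.64 at IGFBP4 and by 0.61 to 1.66 at IRS2 209184_s_at. At IRS1 204686_at the offset was -1.96 to -0.85, and at IGF1R 225330_at it was -1.72 to -0.53. Probe sets of 1 gene could go opposite ways, as IGFBP7 201163_s_at had a mean offset of -2.14 and 201162_at one of 0.94. The median offset over all probe sets tested was 0.01. Since every group holds 1 such array, the offset widened the spread within groups. On the 8 arrays of replicates 2 and 3 alone, 11 member probe sets were called in each line comparison, 5 higher and 6 lower. The share of all probe sets called on those arrays was not counted, so this count describes the members alone.

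**Figure D3:**
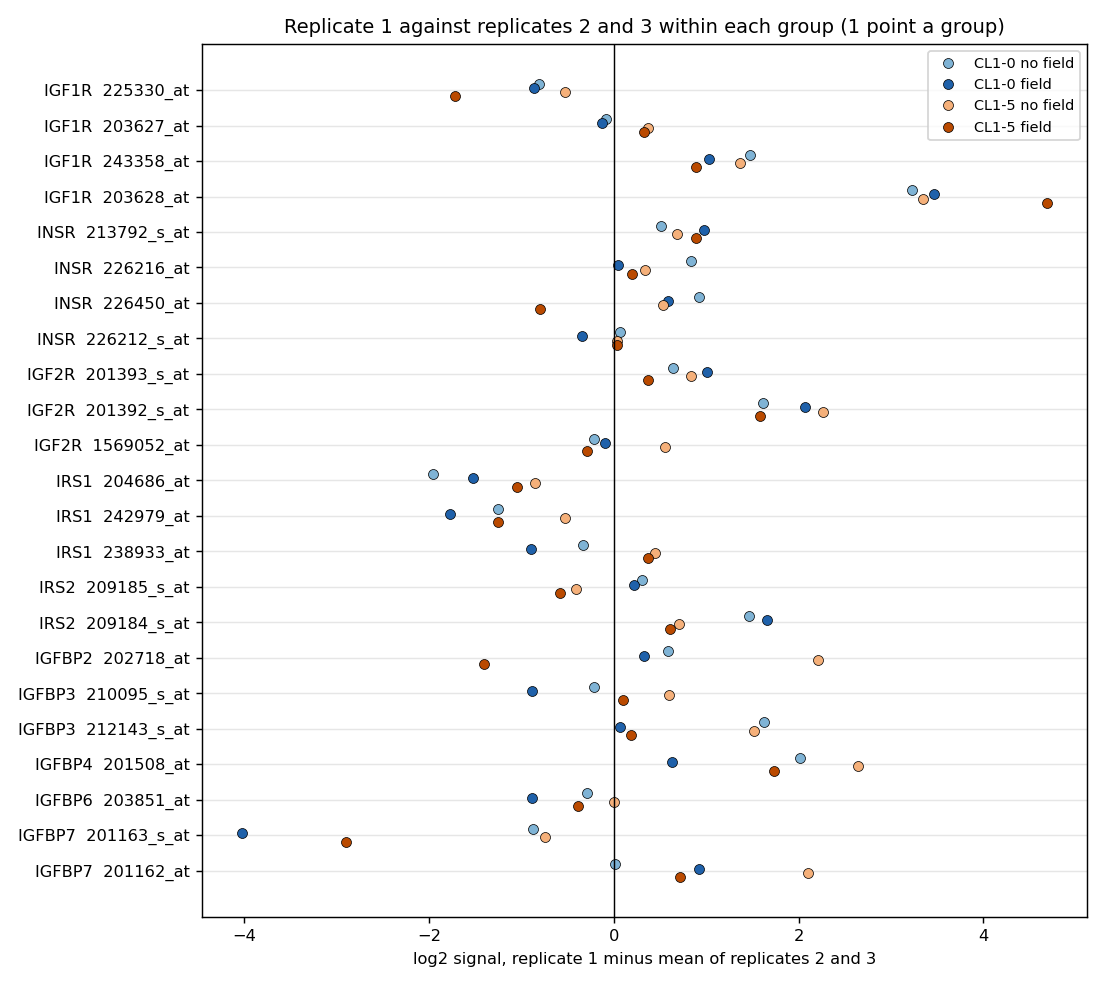
Log2 signal of replicate 1 minus the mean of replicates 2 and 3 (x axis) for the 23 member probe sets tested (rows), with 1 point a group. The 4 points of IGF1R 203628_at lie between 3.23 and 4.69 and those of IRS1 204686_at between -1.96 and -0.85, while IGF1R 203627_at lies between -0.13 and 0.37.

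The field itself moved no member past the test in either line. In CL1-0 0 of 23 probe sets were called and 1 had an unadjusted p under 0.05 (limma), and in CL1-5 the counts were the same, where 0% of all 31890 probe sets were called in either line. With the replicate block 0 members were called in both lines, and 2 in each had an unadjusted p under 0.05. The median field difference of the 10 leading probe sets was 0.24 in CL1-0 and 0.04 in CL1-5, against 0.01 and -0.01 over all leading probe sets of genes.

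In CL1-5 the smallest p was that of IRS2. Probe set 209185_s_at read 1244, 1579 and 1732 without the field and 1692, 2344 and 2712 under it, so that each array under the field was above the array of its own replicate number but the groups overlapped. By replicate number the differences were 0.44, 0.57 and 0.65 on the log2 scale, and in CL1-0 the same differences were -0.03, 0.1 and -0.01. The mean in CL1-5 was 0.55 ± 0.24 (limma, unadjusted p = 0.0386, adjusted p = 1), with an interval of 0.03 to 1.07. With the block it was 0.55 ± 0.11 (unadjusted p = 0.000409, adjusted p = 0.322). The adjusted p misses the threshold in both fits.

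IGFBP3 210095_s_at was higher under the field at each replicate number in CL1-5, by 0.43, 0.48 and 1.39, and in CL1-0 the differences were 0.02, 0.43 and 0.98. The mean in CL1-5 was 0.77 ± 0.36 (limma, unadjusted p = 0.0572, adjusted p = 1), and 0.48 ± 0.36 in CL1-0. With the block the mean in CL1-5 was 0.77 ± 0.27 (unadjusted p = 0.0164, adjusted p = 0.451). The other IGFBP3 probe set differed by 0.71 ± 0.7 in CL1-5, with replicate 1 at -0.17. The low IGF2R probe set 1569052_at read 104, 75.6 and 66 without the field and 115, 110 and 181 under it in CL1-5, without overlap, and differed by 0.71 ± 0.33 (unadjusted p = 0.052, adjusted p = 1). It was the only member whose groups did not overlap in CL1-5, against 5.47% of all probe sets, and the 2 stronger IGF2R probe sets differed by 0.16 ± 0.39 and 0.04 ± 0.79.

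In CL1-0 the smallest p was at IRS1 238933_at, which read 42.3, 44.7 and 63.2 without the field and 62.8, 122 and 113 under it. The difference was 0.95 ± 0.43 (limma, unadjusted p = 0.0493, adjusted p = 1). The leading IRS1 probe set, 204686_at, differed by 0.41 ± 0.6. With the block 238933_at was at 0.95 ± 0.41 (unadjusted p = 0.0392) and 204686_at at 0.41 ± 0.18 (unadjusted p = 0.0403), and neither was called. IGF1R 203627_at was the only member whose groups did not overlap in CL1-0, against 3.68% of all probe sets, with differences of 0.15, 0.21 and 0.17 by replicate number. In CL1-5 that probe set differed by 0.01 ± 0.21, with an interval of -0.46 to 0.47. IGFBP2 differed by -3.24, 1.15 and -0.4 by replicate number in CL1-5, where 1 of its 6 arrays was above the array median.

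**Figure D4:**
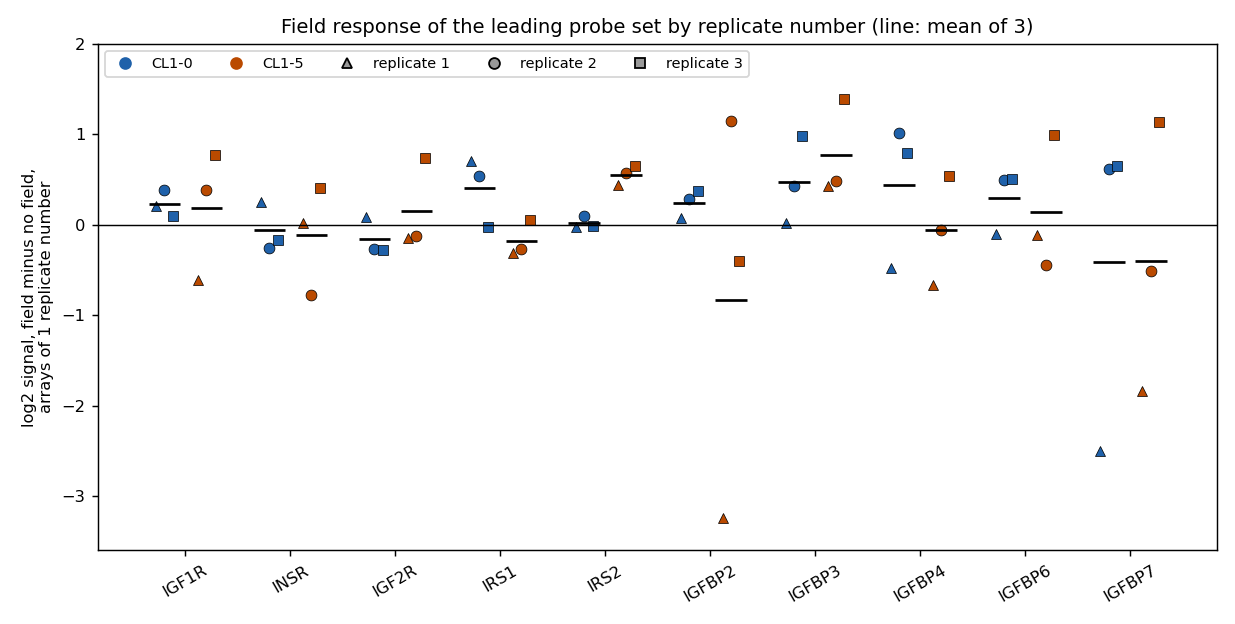
Field response of the leading probe set of each gene (x axis) as the log2 signal under the field minus that without it at the same replicate number (y axis), CL1-0 in blue and CL1-5 in orange, with shapes for the replicate number and a line for the mean of 3. IRS2 in CL1-5 lies between 0.44 and 0.65, and IGFBP2 in CL1-5 runs from -3.24 to 1.15.

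Other genes of the pathway were followed in 6 lists of 74 genes, of which 67 had a probe set of their own and 62 passed the filter at the leading one. Without the field 11 were called higher and 6 lower in CL1-5, where 15.6% of leading probe sets of all genes were called (8.01% higher and 7.63% lower). Under the field 11 were higher and 5 lower, where 17.1% of all were called (8.79% higher and 8.27% lower). The block raised these counts to 17 higher and 14 lower, and to 18 higher and 12 lower. It also raised the calls over all probe sets tested, to 28.5% without the field and 31.6% under it. The share of leading probe sets was not counted with the block. In the field comparisons limma called 0 of 62 in either line. Listed genes, like members, can pass the filter through the line in which they are high. Mean log2 signals without the field were low in 1 line for some, at 2.45 for GRB14 and 4.91 for SESN3 in CL1-5, and 4.99 for SOCS1 in CL1-0. The pathway counts therefore describe the lists and support nothing further.

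Of the ligands and remaining axis genes 0 of 4 tested were called. The smallest p without the field were those of IGFBPL1, at 0.52 ± 0.27 (limma, adjusted p = 0.265), and of IRS4, an IRS1 relative, at -0.73 ± 0.46 (adjusted p = 0.393). IGF1, INS, IGFBP1 and INSRR did not pass the filter. IGF2 was not analysed here. Of 7 proteases of IGFBPs and inhibitors of them, 2 were higher in CL1-5 without the field and 0 lower, and 3 were higher under it. STC1, a stanniocalcin that inhibits PAPPA, had a mean log2 signal of 6.44 in CL1-0 and 10.91 in CL1-5 without the field. The difference was 4.48 ± 0.44 (limma, adjusted p = 4.9e-05), at least 22.3-fold, and 4.73 ± 0.44 under the field (adjusted p = 3.49e-05). Its probe set can bind related transcripts, by its suffix. HTRA1, a secreted serine protease that cuts IGFBPs, differed by 2.16 ± 0.43 (adjusted p = 0.00576) and 1.55 ± 0.43 under the field (adjusted p = 0.0325). That second call ended on leaving out any of 5 arrays (largest adjusted p = 0.123, without replicate 3 of CL1-5 under the field), and with no filter (adjusted p = 0.0559). STC2 was called under the field alone, at 1.43 ± 0.4 (adjusted p = 0.0363), which ended on leaving out any of 5 arrays (largest adjusted p = 0.136, without replicate 2 of CL1-0 under the field). It also ended with the mean of the gene's probe sets (1.05, adjusted p = 0.14), without the trend (0.058) and on the groups compared alone (0.0514). Without the field STC2 differed by 0.91 ± 0.4 (limma, adjusted p = 0.191) and was called with the block (adjusted p = 0.00445). PAPPA itself differed by 1.22 ± 0.51 without the field (adjusted p = 0.163).

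Among 13 adaptors and negative regulators of the receptors, 3 were higher and 1 lower in CL1-5 without the field, and 2 were higher and 1 lower under it. The related adaptors GRB10 and GRB14, both of which bind the active receptors and hold back their kinase, went opposite ways. GRB14 had a mean log2 signal of 8.42 in CL1-0 and 2.45 in CL1-5 without the field. The difference was -5.97 ± 1.07 (limma, adjusted p = 0.0032), at least 5.12-fold lower in CL1-5, and -4.17 ± 1.07 under the field (adjusted p = 0.0229), which lost its call on leaving out any of 4 arrays (largest adjusted p = 0.0904, without replicate 3 of CL1-0 under the field). GRB10 was higher by 1.67 ± 0.49 (adjusted p = 0.0476) and by 2.39 ± 0.49 under the field (adjusted p = 0.00735). The first call was lost on leaving out any of 9 arrays (largest adjusted p = 0.157, without replicate 2 of CL1-0 without the field), with no filter (0.0607), without the trend (0.072) and on the groups compared alone (0.0583). With the mean of its probe sets GRB10 was called in neither comparison, at 1.03 (adjusted p = 0.385) and 1.45 (adjusted p = 0.188). SOCS1, which marks IRS proteins for degradation, differed by 3.3 ± 0.89 without the field (adjusted p = 0.0313, lost with any of 4 arrays, up to 0.096 without replicate 2 of CL1-5, and 0.0664 on the groups compared alone) and by 2.65 ± 0.89 under it (adjusted p = 0.0723). The first was 1.72 with the mean of its probe sets and 2.18 with a floor at the array median, both called. ENPP1, a membrane inhibitor of the insulin receptor, was higher by 1.43 ± 0.36 (adjusted p = 0.0225) and 1.42 ± 0.36 (adjusted p = 0.0222). Its calls were lost with any of 3 and of 4 arrays (up to 0.0956 and 0.087, without replicate 3 of CL1-0 without the field and replicate 2 of CL1-0 under it), and with the mean of its probe sets the differences were 0.71 and 0.78, both called.

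Of 20 genes of the PI3K, AKT and mTOR branch, 2 were higher and 3 lower in CL1-5 without the field, and 3 were higher and 2 lower under it. RPS6KB1, the kinase of ribosomal protein S6, differed by -1.21 ± 0.22 (limma, adjusted p = 0.00356), and RHEB, the GTPase that switches on mTOR complex 1, differed by -0.79 ± 0.15 (adjusted p = 0.00521), at a probe set that can bind related transcripts. DEPTOR, an mTOR inhibitor, was higher by 1.32 ± 0.26 (adjusted p = 0.00587), and RICTOR, a subunit of mTOR complex 2, by 0.91 ± 0.21 (adjusted p = 0.0154). The RICTOR call ended without replicate 2 of CL1-0 or replicate 3 of CL1-5 without the field (adjusted p = 0.067 and 0.0584). These 4 genes were also called under the field, at -1.31 ± 0.22, -0.77 ± 0.15, 1.25 ± 0.26 and 1.03 ± 0.21. PHLPP2, a phosphatase of AKT, differed by -0.75 ± 0.21 without the field (adjusted p = 0.0387, lost with any of 9 arrays, up to 0.129 without replicate 3 of CL1-5), and AKT2 by 1.17 ± 0.25 under it (adjusted p = 0.00869). The PHLPP2 call also ended with no filter (0.0738) and on the groups compared alone (0.119). With probe sets averaged per gene, AKT2 under the field was 0.11 (adjusted p = 0.872) and PHLPP2 without it -0.53 (adjusted p = 0.172). Averaged so, RHEB was -0.6 (adjusted p = 0.441) and -1.04 under the field (adjusted p = 0.141), and RICTOR was 0.84 (adjusted p = 0.104) and 0.86 (adjusted p = 0.0928).

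Of 15 FOXO factors and genes listed as their targets, 4 were higher and 2 lower in CL1-5 without the field, and 3 were higher and 2 lower under it. FOXO factors are held out of the nucleus by AKT. TXNIP, which limits glucose uptake, was higher by 2.48 ± 0.32 (limma, adjusted p = 0.000367), and GADD45A, a growth arrest gene, by 1.83 ± 0.23 (adjusted p = 0.000288). SESN3, a sestrin that restrains mTOR complex 1, was lower at -2.8 ± 0.44 (adjusted p = 0.00135), or -1.65 with a floor at the array median, and CITED2, a transcriptional co-regulator, at -1.56 ± 0.32 (adjusted p = 0.00802). Targets thus went both ways. FOXO1 differed by 1.27 ± 0.57 (adjusted p = 0.196, and 0.0258 with the block). FOXO3 differed by -0.11 ± 0.34 (adjusted p = 0.911, and 0.669 with the block). BCL6 was higher by 1.34 ± 0.34 (adjusted p = 0.0221, up to 0.0954 without replicate 2 of CL1-0 without the field), and TRIB1 by 1.38 ± 0.33 (adjusted p = 0.0162, up to 0.0574 without replicate 3 of CL1-5). Under the field the CITED2 difference was -1.4 ± 0.32 (adjusted p = 0.014, 0.061 without replicate 3 of CL1-0 under it and 0.0671 on the groups compared alone), and TRIB1 was not called (adjusted p = 0.209). TXNIP, GADD45A, SESN3 and BCL6 were called under the field too, at 2.29 ± 0.32, 1.56 ± 0.23, -2.65 ± 0.44 and 1.43 ± 0.34, and the BCL6 call ended without CL1-0 replicate 2 or 3 under the field (adjusted p = 0.0661 and 0.0511). With the mean of its probe sets BCL6 was called in neither comparison (1.48, adjusted p = 0.0932, and 0.99, adjusted p = 0.259). The 3 IGF2 mRNA-binding proteins were not called, and the block called IGF2BP2 higher (1.5 ± 0.54, adjusted p = 9e-05 with the block) and IGF2BP3 lower (-0.57 ± 0.21, adjusted p = 0.0296 with the block) without the field.

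**Figure D5:**
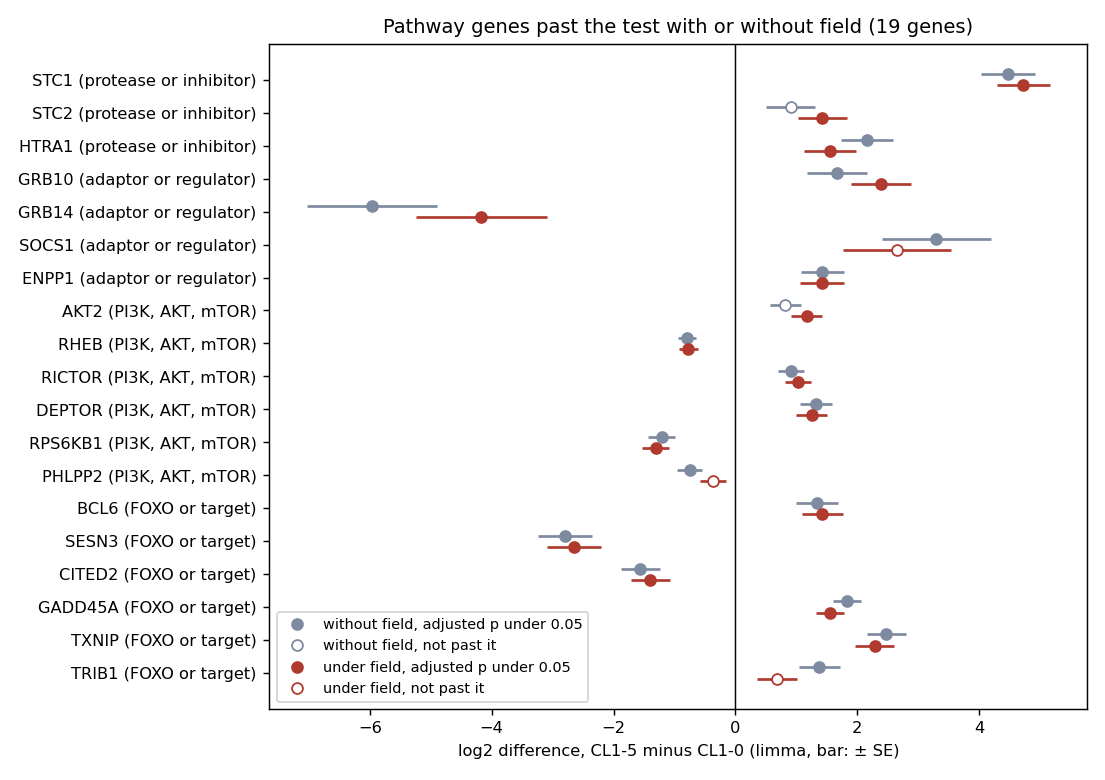
Line difference on the log2 scale (x axis, CL1-5 minus CL1-0) of the 19 listed pathway genes called with or without field (rows, with the list in brackets), with ± SE from limma as bars and filled points for an adjusted p under 0.05. STC1 lies furthest right, at 4.48 and 4.73, and GRB14 furthest left, at -5.97 and -4.17.

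The genes whose leading probe set followed each member most closely over the 12 arrays are given as a description, since arrays share their line and replicate number. For IGFBP4 these were COL4A2 (Pearson correlation 0.993), SH3RF3 and CD109 (both 0.991), and for IGFBP3 they were TMEM200B (0.987), CAMK2N1 (0.983) and DENND2B (0.982). IGFBP7 was followed by FUT8-AS1 (0.987), CCDC68 (0.978) and RNF145 (0.975). IGF1R was followed by WIPI1 (0.976), RNF217 (0.973) and ATP5MK (0.972), and IRS2 by HOXB3 (0.975), MEX3B and CPED1 (both 0.974). IGFBP2 was followed by SLC25A1 (0.974), OSGIN1 (0.971) and ZBTB39 (0.969). Genes that overlapped between the lines had partners too, with FSD1L for IRS1 (0.975) and SERPINA3 for IGFBP6 (0.958). INSR was among the 3 genes closest to IGF2R (0.911), the only pair of members in these lists.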

How the data were processed

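Each of the 12 arrays gives 1 value for each of 54675 probe sets. The deposited values are linear intensities made with the MAS5 algorithm, per the submitters' processing notes. No source used here names its version, and detection calls were not used here. Probe sets were named through GEO's platform annotation, where 41097 have 1 symbol, 1801 have several and 11777 have none. The 3691 values under 1 were set to 1, and all were taken to log2 with no further scaling. Control probe sets (62) were dropped, and 31890 others were kept because they exceeded the median of their array on 3 arrays or more. A gene's leading probe set had the highest mean log2 value. Group means were fitted to all arrays with the package limma (3.58.1, lmFit, then eBayes with an intensity trend) under R 4.3.3, where data.table (1.17.8) read the files. The p-values were adjusted by Benjamini-Hochberg over all probe sets kept. The block fit adds the replicate number, within each line for the field comparisons.

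Arrays with the same number deviated from their group means together. Their correlations were 0.27 to 0.665 within a line and 0.254 to 0.615 across lines, against -0.534 to 0.347 for other numbers. The contrast came mainly from replicate 1. Pairs of replicate 2 with replicate 3 were at 0.194 to 0.347, close to the 0.254 to 0.454 of pairs that share number 2 or 3. The labels do not say what a number shares. The fit was run on simulated data with independent noise on each array. Those data held no offset by replicate number, so the run does not cover such an offset. Figures and promoter searches used Python 3.11.15. All probe sets of the members are named, and from each list the genes called, or else the 2 with the smallest p. PAPPA, IGFBP5, IGFBP1, IGF1, IGF2, INS, INSRR, FOXO1 and FOXO3 are named outside that rule, chosen after their values were seen. The members and lists were chosen with earlier results of these data known. Alternatives were another filter or none, a pseudocount, quantile and median scaling, no trend, fewer groups, 1 or the mean probe set of a gene, a floor, blocks and omitted arrays.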

Additional observations from a re-analysis of the deposited data

Results flagged for a closer look

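IRS2 209184_s_at was picked from the 23 member probe sets tested because its field differences by replicate number had opposite signs in the lines. In CL1-0 the log2 differences under the field by replicate number were -0.01, -0.16 and -0.28, and in CL1-5 they were 0.21, 0.43 and 0.2, so every array pair of one line lay on the opposite side of 0 from the other line. The difference of the responses was 0.42 ± 0.75 (limma, unadjusted p = 0.582, adjusted p = 1), and with the replicate block 0.42 ± 0.21 (unadjusted p = 0.0722, adjusted p = 0.687), so it passes the threshold in neither fit.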

How the results depend on the processing

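No member called in a line comparison changed direction under any alternative run. Over these alternatives the 9 results called without the field gave 217 values, of which 201 stayed called, and the 8 under the field gave 194, of which 192 stayed called. For the pathway genes, 17 results without the field gave 425 values, of which 380 stayed called and 45 did not, and 16 under it gave 400, of which 369 stayed called and 31 did not, with 0 reversed. The count of member probe sets called was 9 without the field and 8 under it. It was 15 and 13 with the replicate block, and 14 without the field with the dap signal as a block. With 1 probe set a gene it was 5 of 10 genes without the field. Leaving out 1 array at a time gave 6 to 10 without the field, 8 to 8 under it, and 0 to 0 in the field comparisons and the interaction. Shares over all probe sets were counted only for the main fit and the replicate block, so the other counts describe the members alone. The block changed no call of a field response. It changed the calls of IGF1R, INSR, IRS1, IRS2 and IGFBP6 given with them. The interaction was not run on the compared groups alone, since it uses all 4.

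Reversals fell on differences that were not called. On the 8 arrays of replicates 2 and 3, INSR 226216_at without the field was 0.16, and under the field IGF2R 201393_s_at was 0.14 and IRS1 204686_at was -0.02. With the mean of its probe sets, IGF2R under the field was 0.01. Leaving out 1 array at a time, the following uncalled differences crossed 0. Without the field, IGF2R 201392_s_at ran from -1.18 to 0.11, INSR 213792_s_at from -0.31 to 0.08 and INSR 226216_at from -0.24 to 0.27. Under the field, IGF2R 201392_s_at ran from -0.75 to 0.47, IGF2R 201393_s_at from -0.29 to 0.27, IGF1R 203628_at from -2.52 to 0.28, IRS1 204686_at from -0.37 to 0.49, INSR 213792_s_at from -0.44 to 0.35 and IRS1 242979_at from -0.07 to 0.93. The causes were not tested. These arrays resolve large line differences, with a median SE of 0.434 for 2 groups over all probe sets tested. The field difference of 0.55 at IRS2 209185_s_at in CL1-5 had a smaller SE of its own, 0.24, or 0.11 with the block. Its adjusted p over all probe sets missed the threshold in both fits.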
